A study of Homo sapiens with 6 samples.

Results

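The genes described here are the protein-coding genes of human chromosome 19 whose symbols begin with ZNF, 249 of the 58735 genes in the table. The rule for them uses chromosome, biotype and symbol alone and no measured value, but it was set with earlier results of these data known. Their RNA was measured in AsPC-1 cells, a long-established human line from a pancreatic cancer, with 3 libraries from cells given an empty lentivirus (Vector) and 3 from cells given a lentivirus with the MMP28 cDNA (OE-MMP28). MMP28 encodes a secreted matrix metalloproteinase. The labels give the genotype of both groups as WT. The MMP28 vector carries GFP and a puromycin resistance gene, and the paper does not state the markers of the empty vector. Infected cells were selected with puromycin, and isolation of single clones is not described. The methods speak of samples in triplicate and of cell experiments repeated independently, but do not say that the 3 libraries of a group came from separate cultures, so p-values measure the spread between these libraries, which may be technical.

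Most ZNF genes of chromosome 19 encode C2H2 zinc finger proteins, in which a string of fingers, each holding a zinc ion with 2 cysteines and 2 histidines, reads out a stretch of DNA. Many carry a KRAB domain at the amino end that binds TRIM28 (KAP1), and TRIM28 brings in the histone methyltransferase SETDB1, heterochromatin protein 1 and histone deacetylases. Such proteins are best known for silencing transposable elements, and the genes arose by repeated tandem duplication, which left them in dense clusters along the chromosome. Of the 249 proteins translated from the GENCODE 29 coding sequences, 246 held at least 1 match to the C2H2 spacing, with a median of 12 fingers and a maximum of 39 in ZNF729. A letter pattern for the KRAB box matched 209 of them. The pattern misses diverged boxes, so 209 is a lower count.

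MMP28 itself was at 5.17, 9.11 and 8.43 FPKM (fragments per kilobase of gene length per 1000000 reads) in the Vector libraries and at 13.1, 13.9 and 15.1 FPKM in the OE-MMP28 libraries, so the groups did not overlap. By an exact permutation test (two-sided) p was 0.1, which 3 against 3 libraries cannot go below, and edgeR's quasi-likelihood test gave a log2 fold change of 0.90 (SE 0.19, adjusted p = 0.00226). Total counts were 13633249 to 16691458 per library and were higher in every OE-MMP28 library than in every Vector library. Ductal markers were abundant, with KRT8, KRT18, KRT19 and EPCAM each above 250 FPKM on average in both groups, while KRT7 was at 1.14 and 1.81 FPKM. KRT19 rose by 0.71 on the log2 scale (adjusted p = 0.00175), and CDH1 went from 20.3 to 13.4 FPKM and fell by 0.59 (adjusted p = 0.0113). Of 13 markers of macrophages, fibroblasts and endothelium, 12 averaged under 1 FPKM in both groups, and the exception was LUM at 37.3 ± 3.52 FPKM in Vector and 45.3 ± 10.1 FPKM in OE-MMP28 (SD, n = 3). PECAM1 rose from 0.0244 to 0.169 FPKM, and the part of such cells in the results below was not tested. In bulk RNA, fewer cells of a type and less RNA per cell cannot be told apart.

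The first question was how many of these genes AsPC-1 cells transcribed. Of the 249 members, 55 had a count of 0 in all 6 libraries and a further 33 had too few reads for the test, with at most 16 counts in any library. A count of 0 allows up to 3 counts, which is 0.180 to 0.220 CPM (counts per 1000000 counts) depending on the library, and this limit covers counting error only. The other 161 members passed the filter on low counts. Their levels were low: the median of the members' mean levels was 1.31 FPKM, against 6.21 FPKM for the 703 other protein-coding genes of chromosome 19 that were tested. Only 94 of the 161 averaged at least 1 FPKM and 11 averaged at least 5 FPKM. The highest was ZNF146 at 22.2 FPKM, followed by ZNF581 at 7.94 and ZNF787 at 7.88 FPKM. None of these 3 proteins matched the KRAB pattern, and ZNF581 holds 4 fingers, ZNF787 holds 7 and ZNF146 holds 10.

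The members lay in 9 clusters of at least 5 genes when neighbours with starts up to 1 Mb apart were joined, and these are lettered A to I along the chromosome (build GRCh38, coordinates as in the table). Cluster A spans 2819874 to 2944971 with 5 members, B spans 7069444 to 9793180 with 16, and C spans 11483427 to 12640098 with 26. Cluster D spans 19668796 to 24129961 with 37 members, among them ZNF91. On the other side of the centromere, cluster E spans 34677639 to 34964049 with 5 members, F spans 36182060 to 37817300 with 26, G spans 43525497 to 45076588 with 24, H spans 51571298 to 53580269 with 40, and I spans 55476332 to 58481230 with 59. The remaining 11 members were scattered.

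The share of members with reads varied along the chromosome. In cluster D, 20 of the 37 members were at 0 in every library and 16 were tested, whereas in cluster G none of the 24 was at 0 throughout and 20 were tested. Clusters C and F each had 13 of 26 members tested, and cluster I had 44 of 59. Tested members had the highest median level in cluster H, at 2.38 FPKM, and in cluster B, at 2.20 FPKM, and the lowest in cluster A, at 0.643 FPKM, and in cluster F, at 0.718 FPKM. A median of 24.3% of a member's 31-letter stretches of exon sequence occurred in another gene in cluster C, 17.9% in D and 2.34% in E, counting overlapping gene models as well as copies. Reads from such stretches can be lost or assigned to a relative, and how the counting treated them is not given in the sources used here.

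The second question was whether the members' levels differed between OE-MMP28 and Vector cells. Few did. Of the 161 tested members, 3 rose (ZNF556, ZNF285 and ZNF613) and 9 fell (ZNF493, ZNF30, ZNF233, ZNF431, ZNF266, ZNF8, ZNF83, ZNF581 and ZNF160) at an adjusted p under 0.05 (edgeR's quasi-likelihood test, Benjamini-Hochberg over all 15319 genes). That is 7.45% of the members, where 23.4% of all genes tested passed the same threshold, 11.7% as higher and 11.6% as lower in OE-MMP28. Among the other protein-coding genes of chromosome 19 the share was 17.4% (122 of 703), and among protein-coding ZNF genes of the other chromosomes it was 20.2% (44 of 218). Split by direction, 1.86% of members were higher and 5.59% lower, against 12.1% and 5.26% of the other chromosome 19 genes. The share that fell was thus close to that of those genes, and the share that rose was smaller. For ZNF genes of other chromosomes the shares were 8.72% higher and 11.5% lower. The members' counts depended on single libraries. Without Vector replicate 3, 3 instead of 9 fell and 3.07% of members passed in all, against 15.1% of all genes. Without OE-MMP28 replicate 2, 4 fell and 3.68% passed, against 12.9% of all genes, and without Vector replicate 1, 7 instead of 3 rose and 8.54% passed, against 24.5%. At an unadjusted p under 0.05 there were 27 members (16.8%), 10 higher and 17 lower, where 35.8% of all genes tested passed.

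Genes of like level were set beside the members. Between the lower and upper quartile of the members' levels, 1.66 to 3.78 on the log2 CPM scale, 24.3% of all tested genes passed the threshold (730 of 3004), while 2 of the 81 members in that range did, which is 2.47%. The standard errors had a median of 0.235 for the members and 0.244 for all genes in that range, on the log2 scale. The median absolute log2 fold change was 0.23 for the tested members, 0.33 for all tested genes and 0.37 for all genes of that range. Every library of a group lay on the same side of the other group for 41 of 161 members (25.5%), where 38.1% of all genes tested had such groups without overlap. The members' share was close to the 25.7% (181 of 703) of the other protein-coding genes of chromosome 19. For ZNF genes of other chromosomes it was 37.2% (81 of 218). These are descriptions of gene groups, which share libraries and are not replicates, and no test of the difference was made.

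**Figure D1:**
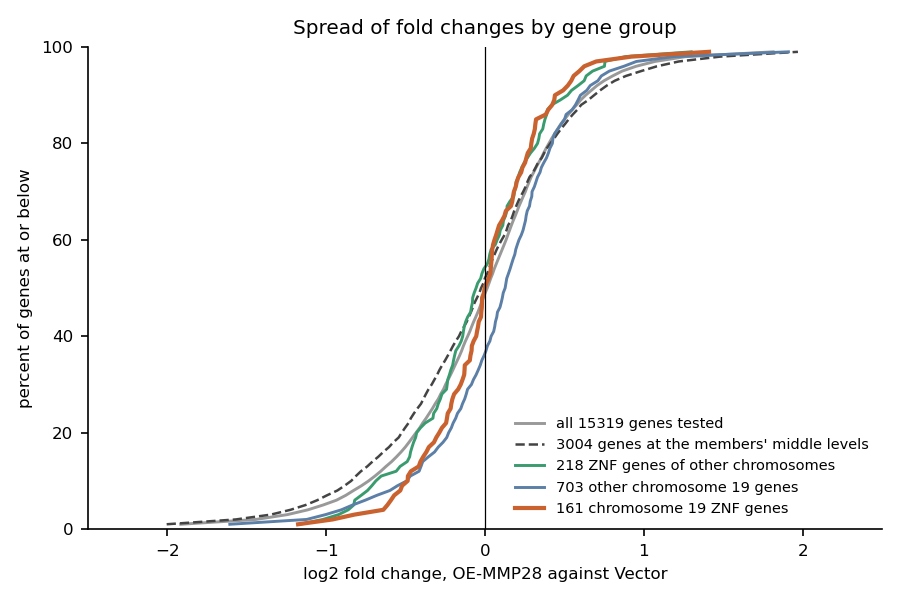
The vertical axis gives the percent of genes at or below each log2 fold change (OE-MMP28 against Vector, horizontal axis), with 1 line per gene group. Between its quartiles the line of the 161 chromosome 19 ZNF genes runs from -0.22 to 0.24, against -0.33 to 0.32 for all genes tested, and the line of the 703 other chromosome 19 genes lies to the right through the middle, with a median of 0.13.

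The median log2 fold change of the 161 members was -0.0024, with 80 above 0 and 81 below, and the quartiles were -0.22 and 0.24. For all genes tested the median was 0.01 with quartiles of -0.33 and 0.32. The other protein-coding genes of chromosome 19 had a median of 0.13, with 448 above 0 and 255 below. For the ZNF genes of other chromosomes the median was -0.06. Of the 149 tested members that did not pass, 115 had a 95% confidence interval that lay within 1 of 0 on the log2 scale, so that a change of that size lay outside the interval, and 34 had a wider interval.

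**Figure D2:**
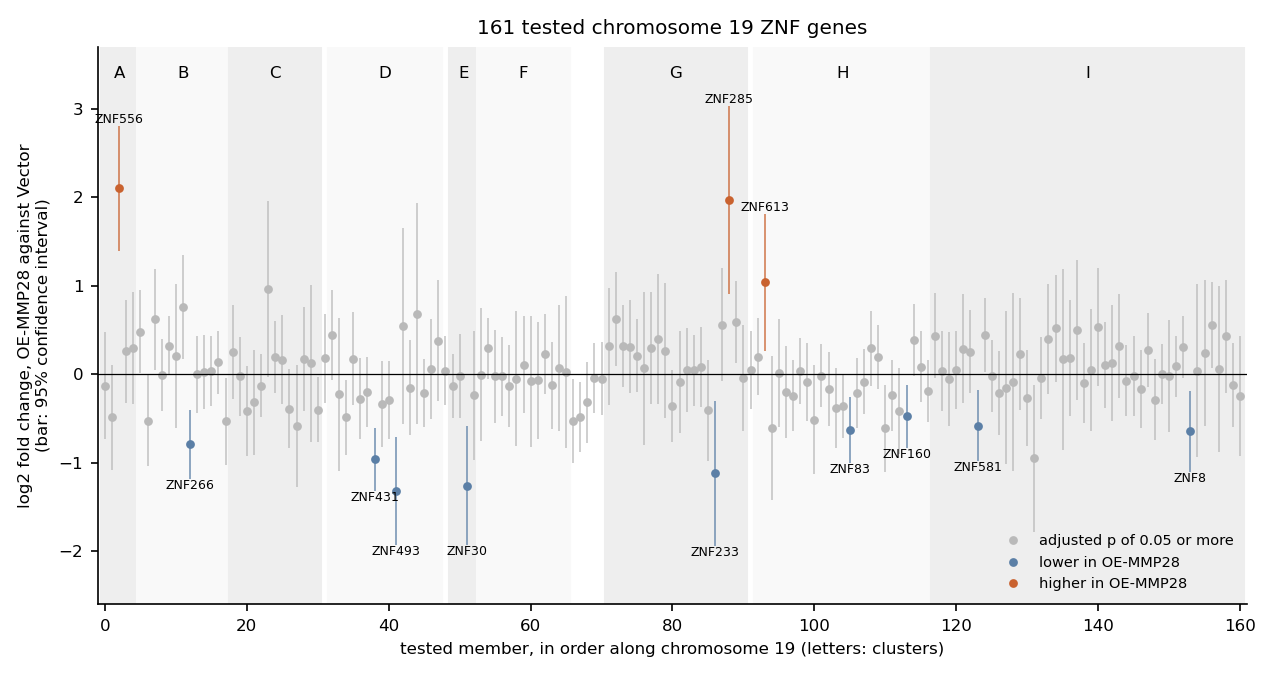
Each point is the log2 fold change (OE-MMP28 against Vector) of 1 of the 161 tested members in order along chromosome 19, with its 95% confidence interval, and shaded letters mark clusters A to I. The 9 blue points fell and the 3 orange points rose, and they lie in 7 of the 9 clusters, with none in clusters C and F.

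The members that fell included a pair in cluster D. ZNF431, whose mouse counterpart was described as a repressor of the Hedgehog receptor gene Ptch1, lies on the plus strand at 21142024 to 21196053. It was at 3.05, 2.36 and 3.28 FPKM in the Vector libraries and at 1.56, 1.504 and 1.37 FPKM in the OE-MMP28 libraries. Every OE-MMP28 library was below every Vector library, and the fall of 0.96 on the log2 scale (SE 0.17, adjusted p = 0.000478) passed the threshold in all 22 alternative fits. ZNF493, 201 kb further along at 21397119 to 21427573 on the same strand, was at 0.391, 0.488 and 0.732 FPKM in Vector and at 0.231, 0.169 and 0.239 FPKM in OE-MMP28. It fell by 1.32 on the log2 scale (SE 0.29, adjusted p = 0.00299), the largest fall among the members, and passed in all 19 alternative fits it entered. Of the exon sequence, 16.8% of the 31-letter stretches of ZNF431 and 14.1% of those of ZNF493 occurred in another gene.

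The sequences before the starts of these genes are shown because the pair that fell and other members of the cluster that did not pass have related letters there. Each line gives the 250 bases before the RefSeq start site, 5′ to 3′ on the gene's strand (build GRCh38.p14), and capitals mark CCGGAAG or its reverse complement CTTCCGG, letters that ETS family factors are known to bind. ZNF714 and ZNF91 are the members of cluster D most like ZNF431 among those tested that did not pass.
ZNF431 (chr19:21141790-21142039, plus strand): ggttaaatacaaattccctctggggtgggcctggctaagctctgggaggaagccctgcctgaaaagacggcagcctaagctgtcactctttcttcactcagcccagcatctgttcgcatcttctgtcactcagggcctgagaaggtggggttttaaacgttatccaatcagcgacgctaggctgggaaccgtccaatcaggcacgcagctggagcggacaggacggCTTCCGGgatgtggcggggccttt
ZNF493 (chr19:21396883-21397132, plus strand): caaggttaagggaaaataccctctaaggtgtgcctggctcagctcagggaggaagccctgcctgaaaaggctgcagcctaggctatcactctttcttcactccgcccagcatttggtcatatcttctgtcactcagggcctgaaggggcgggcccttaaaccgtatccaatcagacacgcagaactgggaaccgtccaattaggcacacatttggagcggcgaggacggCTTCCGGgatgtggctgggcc
ZNF714 (chr19:21081953-21082202, plus strand): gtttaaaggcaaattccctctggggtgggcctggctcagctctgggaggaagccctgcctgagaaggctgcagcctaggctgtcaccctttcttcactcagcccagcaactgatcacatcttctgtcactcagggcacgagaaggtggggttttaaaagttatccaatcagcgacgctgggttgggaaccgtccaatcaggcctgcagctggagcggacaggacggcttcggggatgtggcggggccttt
ZNF91 (chr19:23395472-23395721, minus strand): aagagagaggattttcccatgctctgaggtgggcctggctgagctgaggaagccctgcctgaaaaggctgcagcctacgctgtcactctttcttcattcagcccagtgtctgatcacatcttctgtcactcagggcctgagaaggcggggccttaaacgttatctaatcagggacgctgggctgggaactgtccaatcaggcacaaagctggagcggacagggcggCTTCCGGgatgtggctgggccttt

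In a global alignment, the sequence of ZNF431 was 92.0% identical to that of ZNF714, 84.7% to that of ZNF91 and 81.9% to that of ZNF493. Over the 28 other members of cluster D with a RefSeq entry, the identity to ZNF431 had a median of 80.5% and ranged from 46.4% to 92.0%. ZNF714 was at 2.90 ± 0.66 FPKM in Vector and 2.51 ± 0.35 FPKM in OE-MMP28 (SD, n = 3), a log2 difference of -0.20 with a 95% confidence interval from -0.60 to 0.19. The interval of ZNF91 ran from -0.60 to 0.18. The fall of ZNF431 had an interval from -1.32 to -0.61, just short of both, and the difference between the genes was not tested. ZNF714 was chosen for its sequence after the values had been seen.

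The marked letters were common among the members as a whole. With the first 50 bases of the transcript added to the 250, and both strands searched, 99 of the 217 members with a RefSeq entry held CCGGAAG (45.6%), against 14.4% of 14896 protein-coding promoters of the same length. The share was 75% in cluster E (3 of 4), 72.4% in D (21 of 29), 63.6% in H and 61.1% in I. In B, F and G it was 28.6% to 30%, and the match was found in 2 of 25 in cluster C and 0 of 5 in cluster A. The share was 45.5% among the tested members and 45.8% among those not tested. Of the members that passed the threshold, 3 of the 7 that fell and none of the 3 that rose had a match in this window. Another motif, ACTACAA, was found in 5.07% of members and 3.22% of protein-coding promoters. Neither motif contains the other, and a match is a description of the sequence only.

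ZNF556, in cluster A at 2867335 to 2883445 on the plus strand, had the largest rise, and its sequence is shown as one without the marked letters.
ZNF556 (chr19:2867085-2867334, plus strand): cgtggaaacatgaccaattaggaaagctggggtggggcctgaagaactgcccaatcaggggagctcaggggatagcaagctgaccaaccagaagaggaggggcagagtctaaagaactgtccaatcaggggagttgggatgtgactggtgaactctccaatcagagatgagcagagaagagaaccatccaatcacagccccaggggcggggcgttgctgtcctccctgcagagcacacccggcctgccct

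Its levels were 0.139, 0.158 and 0.103 FPKM in Vector and 0.606, 0.499 and 0.606 FPKM in OE-MMP28, from 14, 14 and 10 counts and from 63, 52 and 67 counts. The log2 fold change was 2.10 (SE 0.34, adjusted p = 0.000199), and all 19 alternative fits it entered passed. The other 4 members of cluster A did not pass the threshold. ZNF285 in cluster G, at 44382298 to 44401608 on the minus strand, rose from 5, 7 and 2 counts to 19, 22 and 21 counts, a log2 fold change of 1.97 (SE 0.51, adjusted p = 0.00825). Both genes stayed below 1 FPKM in every library. Without Vector replicate 3 the adjusted p of ZNF285 was 0.0628. ZNF613 in cluster H, at 51927147 to 51948759 on the plus strand, went from 19, 12 and 13 counts to 28, 33 and 39 counts. The log2 fold change was 1.04 (SE 0.37, adjusted p = 0.0485), and only 3 of 19 alternative fits passed.

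Among the other members that fell, ZNF30 of cluster E (34926903 to 34945170, plus strand) was at 1.43, 0.997 and 1.76 FPKM in Vector and at 0.599, 0.483 and 0.650 FPKM in OE-MMP28. The fall of 1.26 on the log2 scale (SE 0.32, adjusted p = 0.00749) was lost without Vector replicate 3, at an adjusted p of 0.0586. ZNF233 of cluster G (44259880 to 44275317, plus strand) had 23, 28 and 24 counts in Vector and 11, 15 and 12 counts in OE-MMP28. Although the groups did not overlap, the fall of 1.12 (SE 0.40, adjusted p = 0.0450) did not pass when any 1 of the 6 libraries was left out, with adjusted p-values from 0.0518 to 0.152. ZNF285, in the same cluster beyond ZNF112, had the rise given above, and exons of ZNF235 on the other strand take up 4.196% of the exon length of ZNF233.

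ZNF266 of cluster B (9412461 to 9435578, minus strand) was among the better expressed members, at 3.63, 4.89 and 4.19 FPKM in Vector and 2.49, 2.03 and 2.76 FPKM in OE-MMP28. It fell by 0.79 (SE 0.19, adjusted p = 0.00474) and passed in all 22 alternative fits. Cluster H held ZNF83 (52594060 to 52690496, minus strand), a protein with 14 fingers and no KRAB match, at 5.53, 7.33 and 7.94 FPKM in Vector and 5.06, 3.45 and 4.81 FPKM in OE-MMP28. Here the highest OE-MMP28 library lay close to the lowest Vector library. The fall of 0.63 (SE 0.18, adjusted p = 0.0152) was lost without Vector replicate 3 or without OE-MMP28 replicate 2, with adjusted p-values up to 0.126. In the same cluster ZNF160, reported elsewhere as a repressor of the Toll-like receptor gene TLR4, went from 3.64 ± 0.41 to 2.59 ± 0.29 FPKM (SD, n = 3). It was named after its values were seen, fell by 0.48 on the log2 scale (SE 0.17, adjusted p = 0.0448) and did not pass without Vector replicate 2 or 3 or OE-MMP28 replicate 2 or 3.

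Cluster I held ZNF8 and ZNF581. ZNF8 (58278951 to 58302805, plus strand), a protein known to bind SMAD1 and repress BMP signalling, was at 1.28, 1.17 and 1.15 FPKM in Vector and 0.907, 0.553 and 0.827 FPKM in OE-MMP28. The fall of 0.65 (SE 0.22, adjusted p = 0.0383) was lost without Vector replicate 1 or 3 and without OE-MMP28 replicate 2 or 3. ZNF581 (55635459 to 55645622, plus strand) was at 8.33, 10.7 and 9.65 FPKM in Vector and 5.39, 6.76 and 6.81 FPKM in OE-MMP28. It fell by 0.58 (SE 0.19, adjusted p = 0.0326), and it missed the threshold when any library other than Vector replicate 1 was left out, with adjusted p-values up to 0.103. Both values are uncertain in another way: exons of ZNF580, read in the same direction, take up 23.4% of the exon length of ZNF581, and those of AC020915.1 take up 20.7% of that of ZNF8.

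**Figure D3:**
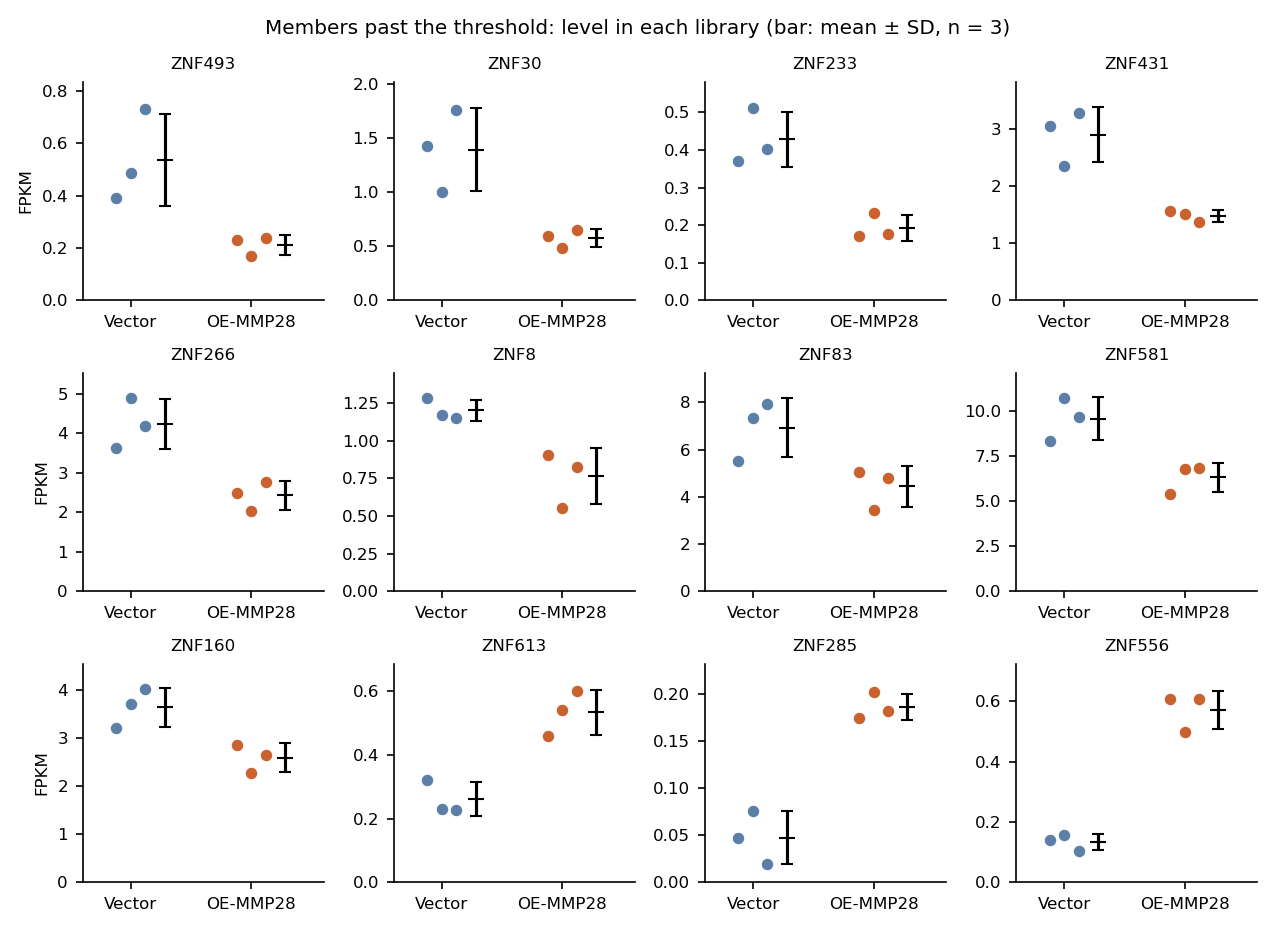
Each panel plots the FPKM of 1 of the 12 members that passed the threshold in each of the 3 Vector (blue) and 3 OE-MMP28 (orange) libraries, with the mean ± SD as a black bar. In all 12 panels the groups do not overlap, and ZNF285 stays below 0.25 FPKM throughout.

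By cluster, the median log2 fold change of the tested members ranged from -0.21 in cluster D to 0.26 in cluster A. In cluster D 10 of the 16 tested members were below 0, and in cluster H, with a median of -0.19, 17 of 25 were. In cluster G, with a median of 0.24, 15 of 20 were above 0. The medians of B, C, F and I lay within 0.05 of 0, and the 4 tested members of cluster E had a median of -0.18. The tested protein-coding genes that are not members and lie in or within 1 Mb of a cluster had medians above 0 at every cluster, from 0.07 at B to 0.31 at F, including 0.17 at D and 0.13 at H. Single libraries moved these medians. Without OE-MMP28 replicate 1 they were 0.02 in G, -0.03 in A, -0.32 in E and -0.30 in H. Without OE-MMP28 replicate 2 they were -0.03 in E and -0.12 in H, and without OE-MMP28 replicate 3 -0.11 in D and -0.12 in H. Without Vector replicate 2 they were 0.14 in A and -0.13 in D, and without Vector replicate 3 0.10 in A, -0.13 in D and -0.09 in H. The medians of D, E and H stayed below 0 without any 1 library, and those of A, B, C and F changed sign without single libraries.

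The summed level of a cluster gives each library 1 value and weights the members by their reads. Cluster D had 156, 136 and 166 CPM in the Vector libraries and 129, 120 and 103 in the OE-MMP28 libraries, and these groups did not overlap. Cluster G had 106, 104 and 107 against 118, 115 and 112, and cluster A had 17.4, 15.8 and 14.0 against 20.4, 18.0 and 18.2, again without overlap but in the other direction. Most of the rise in cluster A lay in ZNF556, whose counts are given above, so that sum is not a separate result. Clusters D and G also hold members that passed singly, and sums without such members were not made. In the remaining 6 clusters the groups overlapped. Groups without overlap in 3 of 9 clusters (33.3%) compare with 38.1% of all genes tested. Over all members the sum was 1659 ± 87.2 in Vector and 1592 ± 84.3 in OE-MMP28 (SD, n = 3), a difference smaller than the SD of either group. Mitochondrial transcripts took 13.7% ± 1.62 of the counts in Vector and 10.8% ± 1.71 in OE-MMP28, and those ranges overlapped. With mitochondrial genes left out of the totals, clusters D and G still did not overlap between the groups, and cluster A did. The sum over all members was then 1923 ± 95.5 in Vector and 1785 ± 115 in OE-MMP28. That difference was larger than the SD of either group, and the groups overlapped.

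**Figure D4:**
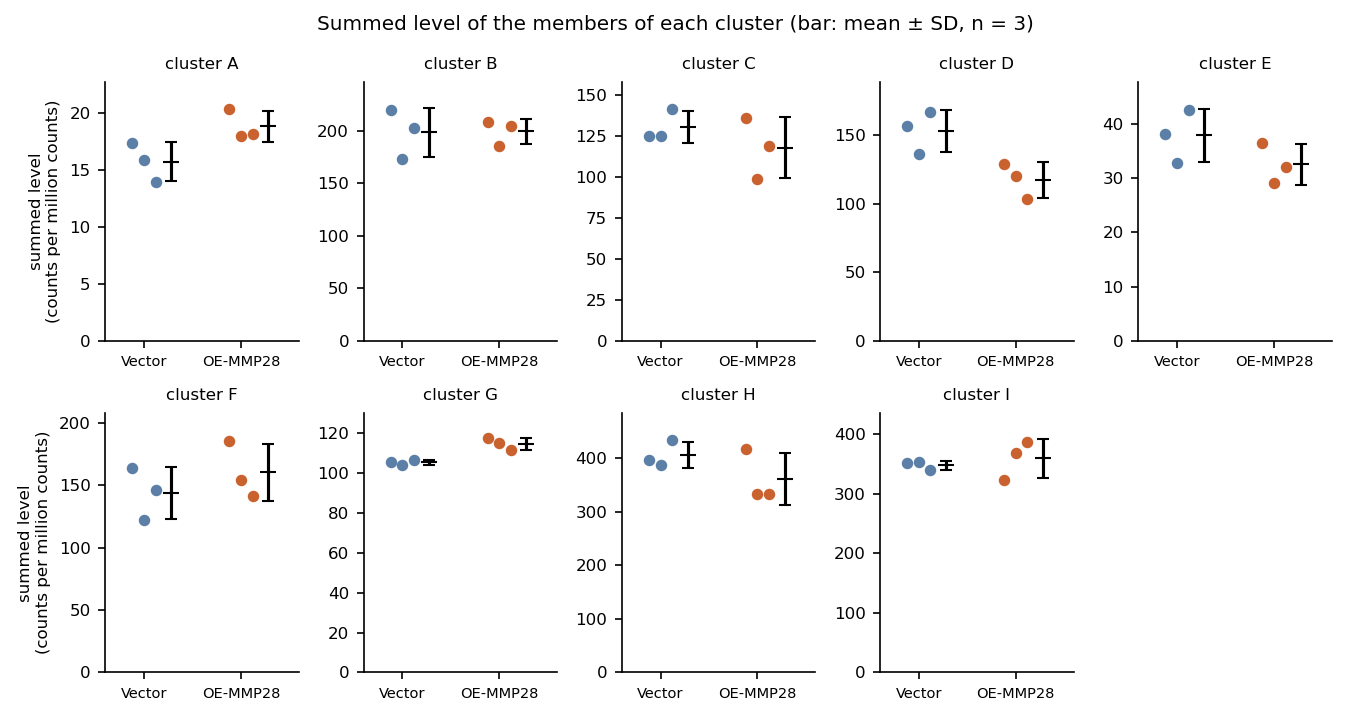
Each panel plots the summed level of the members of 1 cluster in CPM for each of the 3 Vector (blue) and 3 OE-MMP28 (orange) libraries, with the mean ± SD as a black bar. The groups do not overlap in clusters A, D and G, and in D the OE-MMP28 libraries, at 103 to 129, all lie below the Vector libraries.

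A list of 15 members with described functions, which does not hold every such member (ZNF431, ZNF8 and ZNF160 are not on it), was drawn up with earlier results of these data known. Of the 8 on it that were tested none passed the threshold, where 23.4% of all genes tested did. ZNF91, which represses SVA retrotransposons, was at 1.77 ± 0.27 FPKM in Vector and 1.52 ± 0.21 FPKM in OE-MMP28 (SD, n = 3; log2 difference -0.21, adjusted p = 0.445). ZNF93, which represses L1 elements, had at most 5 counts in a library and was not tested. ZNF274, which brings SETDB1 to the 3′ ends of ZNF genes, was at 2.76 ± 0.22 and 2.91 ± 0.11 FPKM, and the interval of its log2 difference ran from -0.25 to 0.43. ZNF808, required for normal development of the human pancreas, was at 1.83 ± 0.05 and 1.39 ± 0.28 FPKM (log2 difference -0.38, adjusted p = 0.212), without overlap between the groups. Of the 31-letter stretches of ZNF808, 36.7% occurred in another gene. ZNF146 (OZF), described as overexpressed in pancreatic carcinoma, was at 23.5, 16.7 and 20.0 FPKM in Vector and 29.3, 22.7 and 21.2 FPKM in OE-MMP28, and these groups overlapped (log2 difference 0.29, adjusted p = 0.214). An interval from -0.05 to 0.63 belonged to that difference.

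Of the other listed members, ZNF473, a component of histone pre-mRNA processing, was at 2.61 ± 0.91 and 2.68 ± 0.22 FPKM, and ZNF444, an activator of the scavenger receptor gene SCARF1, was at 3.31 ± 0.53 and 3.23 ± 0.75 FPKM. Both log2 differences lay close to 0, at 0.04 and -0.02. ZNF224, a repressor of the aldolase A gene, was at 2.11 ± 0.16 and 1.63 ± 0.35 FPKM (adjusted p = 0.199). Exons of AC021092.1 on the other strand take up 40.5% of the exon length of ZNF224, and the strand setting of the counting is not given. ZNF350 (ZBRK1), a partner of BRCA1, was at 0.371 ± 0.10 and 0.242 ± 0.06 FPKM, with an interval of the log2 difference from -1.42 to 0.21, so that a fall by 1 could not be told from no change. ZNF649, ZNF582 and ZNF583 had a count of 0 in all libraries. ZNF382, ZNF331 and ZNF671, which are known as targets of promoter methylation in tumours, had at most 7 counts in any library. ZNF671 had 2, 1 and 0 counts in Vector and 7 in each OE-MMP28 library, and it did not enter the test. The third most abundant member, ZNF787, was at 6.81, 7.52 and 5.86 FPKM in Vector and 6.22, 9.35 and 11.5 FPKM in OE-MMP28, which overlapped (log2 difference 0.44, adjusted p = 0.122).

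Split by the KRAB pattern, 10 of 130 tested members with the match passed (7.69%, 3 higher and 7 lower). Of the 31 without it, 2 did (6.45%, ZNF83 and ZNF581, both lower). The 2 shares were close, and 23.4% of all genes tested passed. The median log2 fold changes with and without the match were -0.02 and 0.04, and the median levels were 1.08 and 2.70 FPKM. Across the 161 tested members, Spearman's rho of the log2 fold change was 0.24 with the GC content of the longest annotated transcript. It was -0.21 with gene length, -0.16 with the number of fingers and -0.18 with the mean level. These values are across genes of the same 6 libraries and are given as a description. The rho with the median of neighbouring genes within 5 Mb on each side was -0.03.

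A list of 27 genes held the silencing complex that KRAB proteins recruit and other chromatin factors, DNMT1 and UHRF1 among them. All 27 were transcribed. Of these, 5 passed the threshold, 3 as higher and 2 as lower, with a median log2 fold change of 0.07. That share, 18.5%, was no higher than the 23.4% of all genes tested. TRIM28, the hub that binds KRAB domains, was at 34.3 ± 3.64 FPKM in Vector and 39.5 ± 5.39 FPKM in OE-MMP28 (SD, n = 3; log2 difference 0.21, adjusted p = 0.341), above the level of every ZNF member in both groups. SETDB1, the H3K9 methyltransferase, was at 6.48 ± 0.28 and 6.53 ± 0.16 FPKM, a log2 difference of 0.02. CBX5, which encodes heterochromatin protein 1 alpha, rose from 12.02 ± 1.34 to 20.1 ± 2.91 FPKM, by 0.75 on the log2 scale (SE 0.15, adjusted p = 0.00134). The maintenance DNA methyltransferase DNMT1 rose from 13.2 ± 1.89 to 19.5 ± 0.92 FPKM (adjusted p = 0.00831), and its partner UHRF1 rose from 12.3 ± 2.16 to 20.1 ± 1.23 FPKM (adjusted p = 0.00273).

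The list held 2 genes that fell. MPHOSPH8, a subunit of the HUSH complex, fell from 13.003 ± 0.50 to 9.61 ± 1.03 FPKM (SD, n = 3; adjusted p = 0.0477), and MORC3, an ATPase that silences retroviral elements, fell from 5.28 ± 0.30 to 3.52 ± 0.95 FPKM (adjusted p = 0.0264). MPHOSPH8 did not pass in 9 of 22 alternative fits and MORC3 in 5, while CBX5 and UHRF1 passed in all 22. DNMT1 passed in 21 and did not without OE-MMP28 replicate 2, at an adjusted p of 0.0570. The HUSH subunits FAM208A (TASOR) and PPHLN1 did not pass, at log2 differences of 0.17 and -0.19. Whether these changes bear on the ZNF genes was not tested.

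A second list held 16 C2H2 genes of chromosome 19 with other symbols, of which 15 were found. Only MZF1, ZSCAN5A, ZFP14 and ZSCAN22 were tested, and none passed, with log2 differences from -0.21 to 0.43. Of all genes tested 23.4% passed, so 4 genes are too few to compare with that share. A count of 0 in every library was listed for 9 of them, among them ZFP28, ZFP30, ZFP82 and ZIK1.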

How the data were processed

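RNA sequencing libraries were made with the NEBNext Ultra RNA kit and, per the submitters' processing notes, aligned with HISAT2 2.0.5 and counted with featureCounts 1.5.0-p3. Strand and multi-mapping settings are not given in the sources used here. The authors deposited raw read counts per gene and FPKM values, and their table also held group means, fold changes and p-values, which were not used. Coordinates of all members were identical to GENCODE 29 on GRCh38. Counts were filtered with filterByExpr (minimum count 10, total 15), scaled by TMM and tested with edgeR 4.0.16 in R 4.3.3 (group as the term, two-sided, Benjamini-Hochberg over 15319 genes). The edgeR, DESeq2, voom and log2(FPKM + 1) fits were tested on simulated data. Alternatives used limma 3.58.1 and DESeq2 1.42.0.

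The members and lists were chosen with earlier results of these data known. Named members were the 6 largest rises and 6 largest falls (adjusted p under 0.05, at least 1 FPKM in a group, no overlap), the largest rise and fall per cluster, 15 members of known function, the 3 most abundant members, TRIM28, SETDB1 and listed genes past the threshold. No rise met the first rule. Promoter sequences are from RefSeq, and 217 of 249 members matched by symbol.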

Additional observations from a re-analysis of the deposited data

How the results depend on the processing

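The share of members past the threshold was below that of all genes in each of 22 alternative fits, at 2.29% to 10.6% against 11.9% to 31.6%. ZNF431, ZNF493, ZNF266 and ZNF556 passed in every alternative fit they entered. The number of members that rose (3 as reported) was 0 with a filter of 5 CPM on average and with limma on log2(FPKM + 1) or log2(FPKM + 0.1), 6 with the length and GC offset, 5 with that offset and the replicate block, and 2 to 7 over the fits that left out a library. The number that fell (9 as reported) was 3 and 4 with limma at pseudocounts of 1 and 0.1, 3 at an unadjusted p under 0.05 with an absolute log2 fold change over 1, and 3 to 11 without single libraries. The members' median was -0.079 with the local-median offset and -0.080 to 0.032 without single libraries. The stricter filter and the FPKM fits tested fewer members (99 and 131). ZNF556, ZNF285 and ZNF613 did not enter those fits, so their rises could not be counted there. The cause of the other differences was not tested.

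The cluster median of C was -0.33 with no filter, that of I was -0.042 with the 5 CPM filter, and that of G was 0.081 with limma on log2(FPKM + 1). Without single libraries the ranges were -0.027 to 0.31 for A, -0.065 to 0.19 for B, 0.015 to 0.22 for G and 0.030 to 0.12 for I. Sign changes of uncalled genes were found for ZNF473 (-0.0015 with upper-quartile scaling, -0.021 with the local-median offset, -0.16 to 0.35 without single libraries), SETDB1 (-0.027 with upper-quartile scaling, -0.0076 without mitochondrial genes, -0.0038 with a filter of 1 CPM, -0.0020 with 5 CPM, -0.014 to 0.043 without single libraries) and ZNF444 (-0.14 to 0.15 without single libraries). With gaps of 0.5 and 2 Mb there were 10 and 6 clusters.

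The replicate block gave 2 members higher and 7 lower, and correlations of same-numbered libraries were 0.017, 0.008 and -0.088, so the numbers were not taken as pairs. With 3 libraries a group, 34 of 149 uncalled members had intervals reaching beyond 1 on the log2 scale.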

Other observations

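Of 32 genes on chromosome 19 with ZNF symbols that are not protein-coding, 7 were tested and 1 passed the threshold, where 23.4% of all genes tested did. ZNF137P, a transcribed pseudogene on the plus strand at 52588505 to 52597345, was at 5.77, 7.26 and 8.26 FPKM in Vector and at 5.27, 3.51 and 3.43 FPKM in OE-MMP28. It fell by 0.79 on the log2 scale (SE 0.22, adjusted p = 0.0118, edgeR). Its span overlaps the 3′ end of ZNF83 on the opposite strand, which also fell, and the annotated exons of the pair do not overlap. Its level in Vector, 7.10 ± 1.25 FPKM (SD, n = 3), was close to the 6.93 ± 1.25 FPKM of ZNF83, and it was named after its values were seen.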
